A study of Mus musculus with 18 samples.

Results

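The mitochondrial genome transcripts of the male livers are described here, in mice given low-dose penicillin (LDP) from birth and in untreated controls. The members were all rows of the male count table that lie on the mitochondrial chromosome, 37 of 38924 rows. They comprised 13 mRNAs, 2 rRNAs and 22 tRNAs, and each was matched by its identifier to GENCODE M21 with the same length. The table of the female mice held 23337 rows and 0 mitochondrial names, so the comparison could be made in males only.

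The mitochondrial genome is a small circle that encodes core subunits of respiratory complexes I, III and IV and of the ATP synthase (complex V), together with the rRNAs and tRNAs needed to translate them. Both strands are transcribed into long precursors, from which the tRNAs are cut out, releasing most of the mRNAs and rRNAs between them. Hepatocytes are rich in mitochondria, which carry out fatty acid oxidation, part of the urea cycle and respiration.

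The series comprised 18 liver libraries, 1 per mouse, in 6 groups of 3. The 2 groups used here were C57BL6J males, with livers taken at 8 weeks of age. LDP males 8, 10 and 11 had received the antibiotic and control males 5, 6 and 7 had not. Both groups were weaned at 4 weeks and ate a diet with 45% of its energy as fat from 6 weeks, so the controls were on the high-fat diet too. The other groups, LDP and control females and germ-free Swiss Webster females that received microbiota, lacked mitochondrial rows and were not analysed here. The mice of a group are separate animals, but cage and litter are not given, so the p-values measure the spread between these mice only.

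The male libraries held 70336366 to 74418889 counts, and 15438 genes passed the filter on low counts. The summed level of 6 hepatocyte markers was 92110 to 101777 CPM (counts scaled to library size with TMM factors) in LDP and 76566 to 87155 in control males, without overlap. Albumin made up most of that sum, and the other 5 markers overlapped, at 19357 to 20552 and 19117 to 20899 CPM. That of 6 Kupffer cell markers was 286.8 to 313.3 against 337.1 to 416.3 CPM, also without overlap. Muscle and adipose markers, which would mark other mitochondria-rich tissue, were each under 1 CPM, with Acta1, Myh4, Ckm, Myh6 and Tnnt2 at 0.114 to 0.603 CPM in sum and Adipoq, Plin1, Ucp1, Cidea and Lep at 0 to 0.123 CPM. Ranges of the LDP and control males overlapped for markers of bile duct (39.95 to 86.9 and 33.2 to 57.7 CPM), endothelium (264 to 285.2 and 201.3 to 270.6), stellate cells (218.3 to 442.7 and 308.8 to 356.2), lymphocytes (16.8 to 18.5 and 15.8 to 20.6), red blood cells (140.7 to 170.9 and 129.9 to 185.2) and pancreas and gut (36.2 to 49.3 and 42.9 to 47.5). The part of cell makeup in the values below was not tested.

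Sequences of some members and of nuclear copies of them are given first. Whether the copies affected the counts was not tested. A run of pseudogenes on chromosome 1 repeats 7 mitochondrial mRNA genes, from mt-Co1 into mt-Nd4, in whole or in part and almost letter for letter. mt-Co2, which encodes the second subunit of cytochrome c oxidase, and its copy Gm28661 are shown because they are identical. Each is printed from its first base on the strand of the gene (mt-Co2 at chrM:7013-7102, plus strand; Gm28661 at chr1:24615476-24615565, minus strand; GRCm38, from the GENCODE M21 transcripts).
mt-Co2: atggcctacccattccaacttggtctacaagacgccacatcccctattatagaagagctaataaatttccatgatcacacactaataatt
Gm28661: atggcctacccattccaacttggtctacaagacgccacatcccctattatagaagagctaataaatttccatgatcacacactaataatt

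mt-Nd3, a complex I subunit, and its copy Gm28438 are shown for their single difference, in capitals, the substitution T3C counted from the first base of the gene (mt-Nd3 at chrM:9459-9519, plus strand; Gm28438 at chr1:24613059-24613119, minus strand).
mt-Nd3: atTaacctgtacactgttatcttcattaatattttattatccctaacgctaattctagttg
Gm28438: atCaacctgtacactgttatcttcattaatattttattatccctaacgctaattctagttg

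mt-Co1, the catalytic subunit of cytochrome c oxidase, also has a full-length copy on chromosome 2, Gm13340, which is shown as a contrast because it differs from the gene more often. Capitals mark the 3 differences within the first 120 bases (mt-Co1 at chrM:5328-5447, plus strand; Gm13340 at chr2:22589528-22589647, minus strand).
mt-Co1: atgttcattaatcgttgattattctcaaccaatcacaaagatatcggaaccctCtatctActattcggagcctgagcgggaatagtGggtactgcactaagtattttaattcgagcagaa
Gm13340: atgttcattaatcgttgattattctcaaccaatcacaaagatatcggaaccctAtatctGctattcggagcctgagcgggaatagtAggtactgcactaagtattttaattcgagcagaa

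Among the 13 mRNAs, 7 were abundant, at 1000 CPM or more, and 6 were low, at less than 15 CPM. Per kilobase of gene, mt-Co1 had the highest level, at 12697 ± 801 CPM per kilobase (SD, n = 6 mice). It was followed by mt-Cytb, the cytochrome b of complex III, at 9322 ± 443.5 CPM per kilobase. The complex I genes mt-Nd2 and mt-Nd1 were at 7309 ± 457.8 and 4483 ± 168.4 CPM per kilobase, and the ranges over mice of these 4 genes did not overlap. The other abundant complex I genes, mt-Nd5 at 3035 ± 236, mt-Nd4 at 3010 ± 218.2 and mt-Nd6 at 2936 ± 218.6 CPM per kilobase, could not be ordered within the spread between mice. The 2 rRNAs lay below these mRNAs in counts per kilobase. mt-Rnr2, the large subunit rRNA, was at 699.3 ± 152.6 and mt-Rnr1, the small subunit rRNA, at 539.6 ± 116.4 CPM per kilobase. How well the library preparation recovered each kind of RNA was not measured, so the order of rRNAs and mRNAs holds for counts only. In every mouse mt-Rnr1 was below mt-Rnr2, by a ratio of 0.752 to 0.791.

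The remaining mRNAs formed an uninterrupted run from mt-Co2 to mt-Nd4l. mt-Nd3 stood at 29.1 ± 6.45 CPM per kilobase, mt-Co3 (also of complex IV) at 1.97 ± 0.574 and mt-Nd4l (complex I) at 1.85 ± 0.367. mt-Co2 was at 0.397 ± 0.144, and mt-Atp6 and mt-Atp8, the ATP synthase subunits, were at 0.388 ± 0.126 and 0.350 ± 0.0534 CPM per kilobase. Every abundant mRNA and both rRNAs were at 389.8 CPM per kilobase or more in every mouse, and each member of this run was at 34.97 or less. The genes on either side of the run, mt-Co1 and mt-Nd4, were among the abundant ones.

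**Figure D1:**
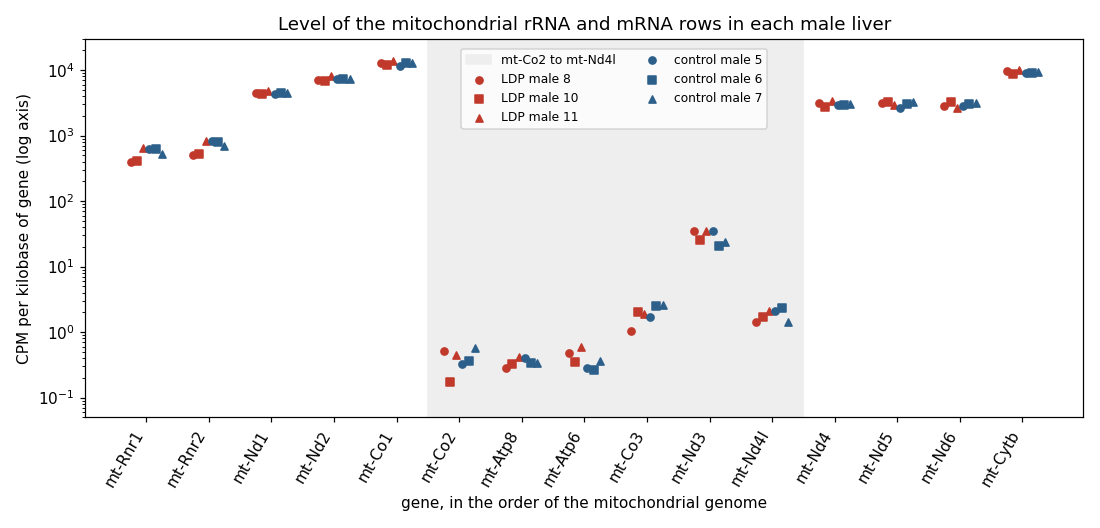
Level of the 15 mitochondrial rRNA and mRNA rows in each mouse, in CPM per kilobase of gene on a log axis, with genes in genome order; each point is 1 mouse, and the grey band covers mt-Co2 to mt-Nd4l. Points inside the band lie at 34.97 or below, and points outside it at 389.8 or above.

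In counts, mt-Co2 had 25, 9 and 21 in LDP males 8, 10 and 11 and 16, 18 and 28 in control males 5, 6 and 7. mt-Co3 had 57, 122 and 103 counts in the LDP and 98, 142 and 149 in the control males. mt-Nd3 had 853, 673 and 847 in the LDP and 880, 531 and 601 in the control males. mt-Co1, by comparison, had 1303750 to 1491795 counts in the same libraries. mt-Nd4l had 30, 39 and 43 counts in the LDP and 46, 50 and 31 in the control males. mt-Atp6 had 23, 18 and 28 against 14, 13 and 18. mt-Atp8 had 4 to 6 in every mouse, too few for the test. The groups overlapped for each of these 6 genes.

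These low rows lie between the genes at the ends of the chromosome 1 copy. Comparing the mitochondrial genes with the GENCODE M21 nuclear transcripts found 7 pseudogenes side by side on the minus strand of chromosome 1 (24611535 to 24616197, GRCm38): Gm29216, Gm28661, Gm10925, Gm28437, Gm28438, Gm10222 and Gm28439. Their matches lie on chrM:6390-11042, from within mt-Co1 to within mt-Nd4, a span of 4653 bases. Only annotated transcripts were compared. No pseudogene among them covered the tRNAs of this span or mt-Atp8 outside its overlap with mt-Atp6, so those bases were not compared. Of the 4140 aligned bases 2 differed, an identity of 99.95%. One is T3C of mt-Nd3, printed above, and the other is A1066T of mt-Co1, counted from its first base. The copies of mt-Co2 (681 of 684 bases), mt-Atp6 (678 of 681), mt-Co3 (783 of 784) and mt-Nd4l (294 of 297) were identical over the aligned bases.

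11 members lay wholly inside this span, and the highest count of any of them in any mouse was 880. They were the 6 low mRNAs, of which 5 had a matching pseudogene, and 5 tRNAs. The 9 other mRNA and rRNA rows lay wholly or partly outside it, and their lowest count was 26139. The 17 tRNA rows outside the span did not stand apart in this way: some of them, such as mt-Tf with 0 to 2 counts and mt-Tw with 25 to 33, were as low as the rows inside. The genes at the edges are partly repeated: the copy covers 31.3% of mt-Co1 and 63.6% of mt-Nd4. If only the 1062 unrepeated bases of mt-Co1 and the 502 of mt-Nd4 are used as length, their levels become 18472 ± 1165 and 8262 ± 599 CPM per kilobase. mt-Nd4 then no longer shares the level of mt-Nd5 and mt-Nd6. How reads that match more than 1 place were counted is not given in the sources used here, and the part of the nuclear copy in the low counts was not tested.

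Other nuclear copies differ more from their genes, most of which had high counts. Gm13340 covers all 1545 bases of mt-Co1 at 97.6% identity, and its own row held 1422 to 1933 counts. Gm13341, at 95.9% identity to mt-Co2, held 126 to 177 counts, more than the 9 to 28 of mt-Co2 itself. Gm13339 matches 510 bases of mt-Nd2 at 96.7% identity and held 4 to 18 counts. The low mt-Atp6 also had partial copies, AC124578.3 (187 bases, 93.6% identity) and Gm43743 (116 bases, 94.8%), neither with a row in the male table. Copies of mt-Cytb, mt-Nd5, mt-Nd6 and part of mt-Co1 elsewhere in the nuclear genome (Gm11410, Gm11407, Gm4076, Gm11408 and Gm11512) were 90.7% to 95.2% identical and held 2 to 28 counts. Of the 7 pseudogenes on chromosome 1 only Gm10222 had a row in the male table, with 3 to 9 counts. No copy of at least 50 bases and 90% identity was found among the annotated pseudogenes for mt-Nd1, mt-Atp8, the rRNAs or any of the 22 tRNAs. Matches to other kinds of transcript were not kept.

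mt-Atp8 and mt-Atp6 share 43 bases, read in different frames (chrM:7927-7969, GRCm38, plus strand). The stretch is shown because a read within it fits both rows; capitals mark the first codon of mt-Atp6 and the last codon of mt-Atp8.
mt-Atp8 and mt-Atp6 overlap: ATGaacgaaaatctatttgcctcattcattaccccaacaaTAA

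mt-Nd5 and mt-Nd6 overlap by 14 bases on opposite strands. Since strandedness of the libraries is not given, reads within that overlap cannot be told apart by gene. For the same reason, the counts of any row, those of minus-strand genes included, may hold RNA of either strand.

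The mitochondrial rows held 5.56%, 5.39% and 5.80% of all counts in LDP males 8, 10 and 11 and 5.20%, 5.50% and 5.68% in control males 5, 6 and 7. The groups overlapped, with means of 5.58% ± 0.210 and 5.46% ± 0.244 (SD, n = 3 each). In bulk tissue, fewer cells of a type and less RNA per cell cannot be told apart. With albumin, a large share of liver mRNA, left out of the total, the means were 6.04% ± 0.201 and 5.83% ± 0.244.

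Within the mitochondrial counts, mRNAs took 95.9% to 97.5% per mouse, rRNAs 2.09% to 3.68% and tRNAs 0.394% to 0.464%. mt-Co1 alone took 34.1% to 36.0%, and mt-Co1, mt-Cytb, mt-Nd2 and mt-Nd5 together 77.4% to 79.4%. By complex, the shares were 41.1% to 42.8% for complex I, 18.6% to 19.97% for complex III and 34.1% to 36.0% for complex IV. The complex IV share was almost wholly mt-Co1, as mt-Co2 and mt-Co3 had few counts. The share of genes on the minus strand, of which mt-Nd6 is the main one, was 2.995%, 3.51% and 2.67% in the LDP and 3.19%, 3.21% and 3.28% in the control males. LDP males 10 and 11 were thus the highest and the lowest mouse. All these shares overlapped between the groups. Complex V, with the few counts of mt-Atp6 and mt-Atp8 only, was at 0.000574% to 0.00082% in LDP and 0.000447% to 0.000569% in control males. These ranges did not overlap, but LDP male 10 and control male 7 had the same counts, 18 for mt-Atp6 and 5 for mt-Atp8. They were parted only by their mitochondrial totals, 4007923 and 4043425 counts. Of all genes tested, 10.5% did not overlap in CPM.

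The abundant mRNAs differed little between LDP and control males. mt-Co1 was at 20027, 18603 and 21431 CPM in LDP males 8, 10 and 11 and at 17886, 19747 and 20010 CPM in control males 5, 6 and 7. mt-Cytb was at 11043, 10096 and 11445 against 10481, 10242 and 10678 CPM. For both, LDP male 11 was the highest mouse and the groups overlapped. The complex I genes mt-Nd1 and mt-Nd2 behaved alike. mt-Nd1 was at 4272, 4113 and 4589 CPM in the LDP and 4196, 4281 and 4291 CPM in the control males. mt-Nd2 was at 7459, 7062 and 8489 against 7467, 7539 and 7503 CPM. LDP male 10 was the lowest and LDP male 11 the highest mouse in both, and the 3 controls of mt-Nd2 lay close together between them.

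mt-Nd4, also of complex I, had the same extremes, at 4298, 3715 and 4599 CPM in the LDP and 4021, 4021 and 4230 CPM in the control males. mt-Nd5 went another way, at 5672, 5965 and 5400 against 4776, 5515 and 5893 CPM, with LDP male 10 highest. mt-Nd6, the one mRNA gene on the minus strand, was at 1479, 1664 and 1357 against 1464, 1551 and 1627 CPM. Like its neighbour mt-Nd5, it was highest in LDP male 10. In mt-Nd6 LDP male 11 was the lowest mouse, where the other abundant mRNAs except mt-Nd5 had their highest value.

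In edgeR's quasi-likelihood test with Benjamini-Hochberg adjustment over all 15438 genes, none of the 7 abundant mRNAs passed, with adjusted p from 0.941 to 0.977. Their log2 changes, LDP against control, ran from -0.04 (mt-Nd6) to 0.07 (mt-Nd5), and 6 of 7 were above 0. The approximate 95% intervals of the 7 changes all lay between 0.833-fold and 1.23-fold. Changes within these bounds cannot be told from 0 with 3 mice per group.

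Of all 37 members 33 passed the filter on low counts (12 mRNAs, 2 rRNAs and 19 tRNAs), while mt-Atp8, mt-Tf, mt-Td and mt-Tk did not. 0 of the 33 passed edgeR's test, where 0.00648% of all genes did, and 0 had an unadjusted p under 0.05, where 5.23% of all genes did. The smallest unadjusted p of a member was 0.102. Without LDP male 11, 9 of the 33 had an unadjusted p under 0.05 in edgeR, where 13.2% of all genes did, and all 9 were lower in LDP males: both rRNAs, mt-Tl1, mt-Ti, mt-Ta, mt-Tn, mt-Tc, mt-Ty and mt-Tp. Without control male 5 mt-Nd3 and mt-Tr had one, and without LDP male 10 mt-Th had one, each higher in LDP males. DESeq2 likewise called 0 members, with 0 at an unadjusted p under 0.05, and 0.272% of all genes. Among the named members it gave no adjusted p for mt-Co2, mt-Atp6, mt-Nd4l, mt-Tw, mt-Ts1, mt-Tg and mt-Tt, so these could not be called there. In 0 of the 33 the LDP and control males did not overlap, against 10.5% of all genes. 16 members were higher and 17 lower in LDP males, with a median log2 change of -0.04 beside 0.0024 for all genes tested.

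**Figure D2:**
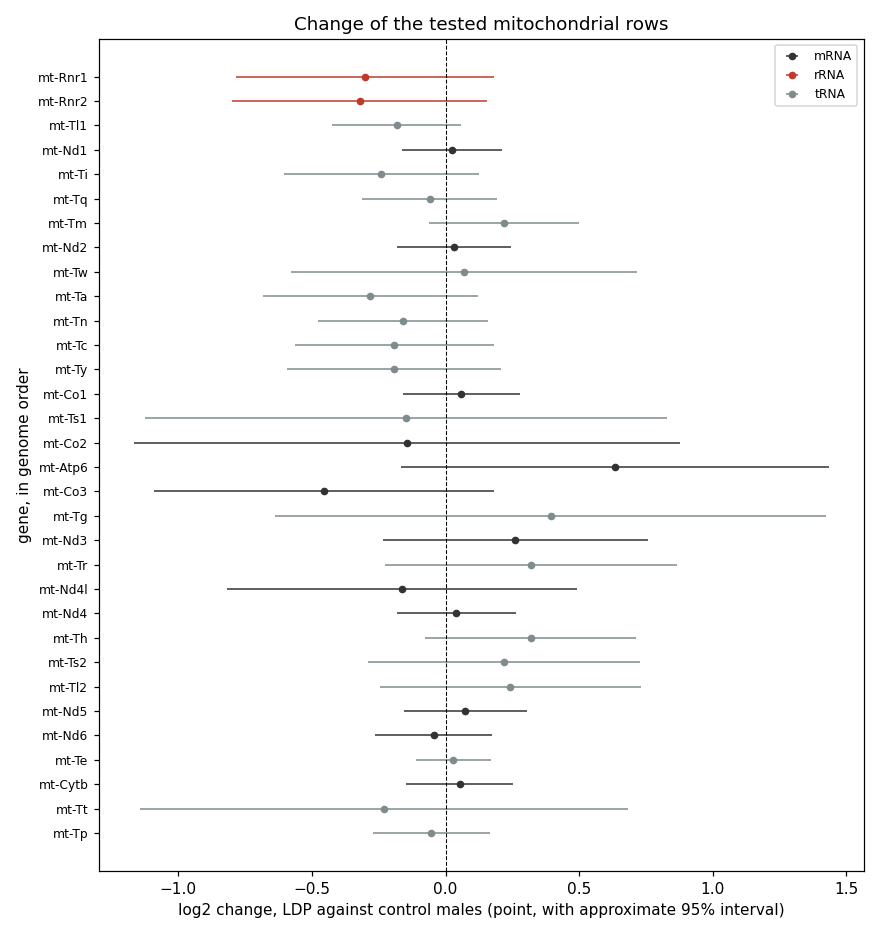
log2 change, LDP against control males, of the 32 tested rows that are mRNAs, rRNAs or tRNAs with a mean of at least 10 counts, with the approximate 95% interval as a bar; genes are in genome order and colours mark the kind of RNA. Every interval includes 0, and the bars of the 7 abundant mRNAs lie between -0.26 and 0.30.

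The low mRNAs carried wide intervals. mt-Atp6 had a log2 change of 0.63 (SE 0.354, 95% interval -0.17 to 1.43) and mt-Co3 one of -0.46 (SE 0.281, -1.09 to 0.18), with an adjusted p of 0.92 for both in edgeR. mt-Nd3 was at 12.2, 8.84 and 12.2 CPM in the LDP and 12.1, 7.25 and 8.34 CPM in the control males, a log2 change of 0.26 (SE 0.211). The log2 changes of mt-Co2 and mt-Nd4l were -0.14 (SE 0.453) and -0.16 (SE 0.290). These counts thus set no narrow bound on the mRNAs between mt-Co1 and mt-Nd4.

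The 2 rRNAs varied more between mice than the abundant mRNAs. mt-Rnr2 was at 793.1, 832.3 and 1326 CPM in LDP males 8, 10 and 11 and at 1327, 1252 and 1107 CPM in control males 5, 6 and 7. mt-Rnr1 was at 372.3, 390.8 and 621.8 against 602.2, 598.2 and 506.8 CPM. LDP males 8 and 10 were below every control for both rRNAs, and LDP male 11 was at the level of the highest control. The coefficient of variation over the 6 mice was 21.6% for mt-Rnr1 and 21.8% for mt-Rnr2, against 3.76% (mt-Nd1) to 7.78% (mt-Nd5) for the abundant mRNAs. Per 100 mRNA counts there were 2.15, 2.39 and 3.40 rRNA counts in the LDP and 3.84, 3.50 and 2.98 in the control males.

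The log2 change was -0.30 (SE 0.203, 95% interval -0.79 to 0.18) for mt-Rnr1 and -0.32 (SE 0.202, -0.80 to 0.16) for mt-Rnr2, with an adjusted p of 0.92 for both in edgeR. Leaving out LDP male 11 changed this call. Without that mouse the changes were -0.58 (SE 0.0975, adjusted p = 0.0466) and -0.60 (SE 0.0979, adjusted p = 0.0426) in the same edgeR test, 2 of the 13 genes called lower among 15742, or 0.0826%. That fit called 66 genes in all, against 1 with all 6 mice, and it compares 2 LDP males with 3 controls. The sign of both changes was negative in each of 16 settings tried, with values from -0.58 to -0.17 for mt-Rnr1 and -0.60 to -0.19 for mt-Rnr2.

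Some other values followed the order of the rRNAs across these mice, in part. Gm26917, a gene model on chromosome 17 singled out after its values were seen, was at 5.44, 4.23 and 17.4 CPM in LDP males 8, 10 and 11 and at 17.1, 11.4 and 9.41 CPM in control males 5, 6 and 7. As for the rRNAs, LDP males 8 and 10 were its lowest mice, and LDP male 11 and control male 5 its highest. Gm42418, on the same chromosome, did not share that order, at 303.5, 229.1 and 313.5 against 234.2, 259.3 and 269.9 CPM. The summed level of 4 RNAs known to stay in the nucleus was 783.7, 847.6 and 494.2 CPM in the LDP and 566.2, 537.2 and 490.9 CPM in the control males, highest in the mice with the lowest rRNA. Within the controls this did not hold, as control male 7 had both the lowest sum and the lowest rRNA. Among the 4, Malat1 was at 458.7, 258.9 and 257 against 208.4, 228.3 and 186.7 CPM, with an adjusted p of 0.92 in edgeR. LDP males 10 and 11 were nearly equal for Malat1. Neat1 was at 316.5, 579.3 and 230.2 against 351.5, 300.5 and 295.6 CPM, with LDP male 8 below control male 5. The part of Gm26917, Gm42418 and the nuclear RNAs in the rRNA values was not tested.

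**Figure D3:**
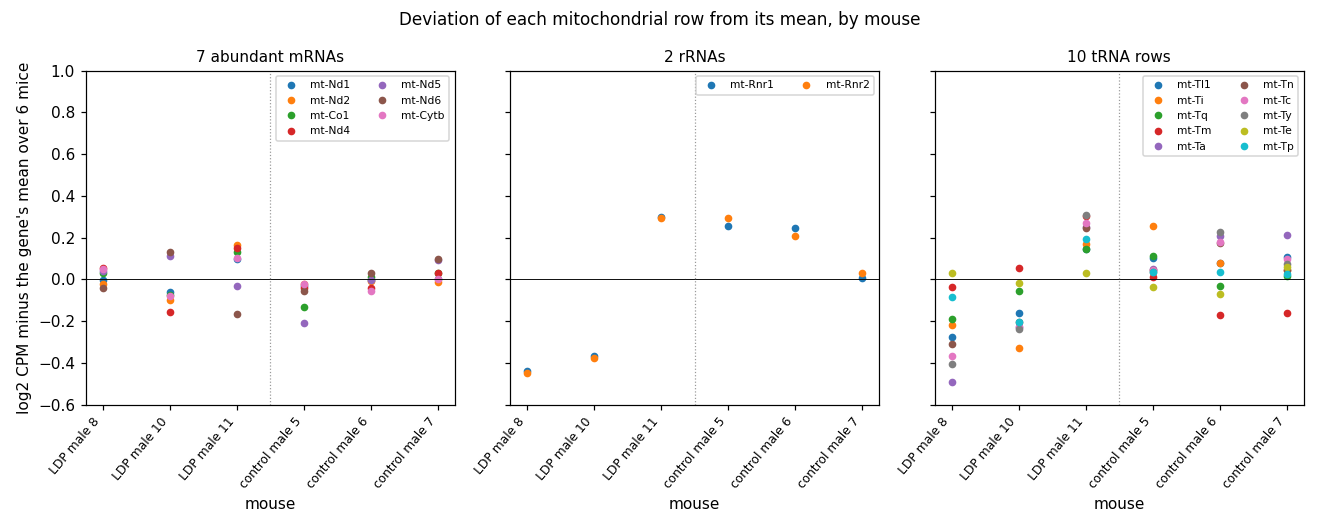
Deviation of log2 CPM from the gene's mean over the 6 mice, by mouse, for the 7 abundant mRNAs, the 2 rRNAs and the 10 tRNA rows with a mean of at least 200 counts; the dotted line parts LDP from control males. The rRNAs lie at -0.45 to -0.37 in LDP males 8 and 10 and at 0.29 to 0.30 in LDP male 11, while the abundant mRNAs stay between -0.21 and 0.16 in all mice.

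The tRNA rows are 59 to 75 bases long, so they are given as counts or CPM and not per kilobase. Rows this short are likely shorter than a library fragment. Whether their counts came from mature tRNA or from longer RNA that spans the gene was not tested. Most counts fell on mt-Te, the tRNA for glutamate, with 4823 to 5200 per mouse, and mt-Tp, the tRNA for proline, with 4446 to 5362. Both are on the minus strand, on either side of mt-Cytb, and are printed because they lead the class (mt-Te at chrM:14071-14139 and mt-Tp at chrM:15356-15422, GRCm38).
mt-Te: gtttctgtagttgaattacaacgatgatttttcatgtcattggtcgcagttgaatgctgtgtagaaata
mt-Tp: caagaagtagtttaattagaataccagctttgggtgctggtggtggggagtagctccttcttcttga

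mt-Td and mt-Tk, the tRNAs for aspartate and lysine, had 0 counts in every mouse, which allows up to 0.0403 to 0.0427 CPM by the limit of 3 counts, for counting error only. mt-Tf had 0 to 2 counts, under that limit in all mice, and mt-Tv had 3 to 12. Of the 5 tRNA rows between the ends of the chromosome 1 copy, whose own sequences were not compared with it, mt-Tr had the most, with 120 to 234 counts. The others, mt-Ts1, mt-Td, mt-Tk and mt-Tg, had 0 to 25. mt-Tr, the tRNA for arginine, is shown for its run of 8 A bases, in capitals (chrM:9808-9875, plus strand). The offset between the mitochondrial and the chromosome 1 coordinates changes by 1 base between the copies of mt-Nd3 and mt-Nd4l, the interval that holds mt-Tr.
mt-Tr: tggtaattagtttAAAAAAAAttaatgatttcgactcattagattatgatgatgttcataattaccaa

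**Figure D4:**
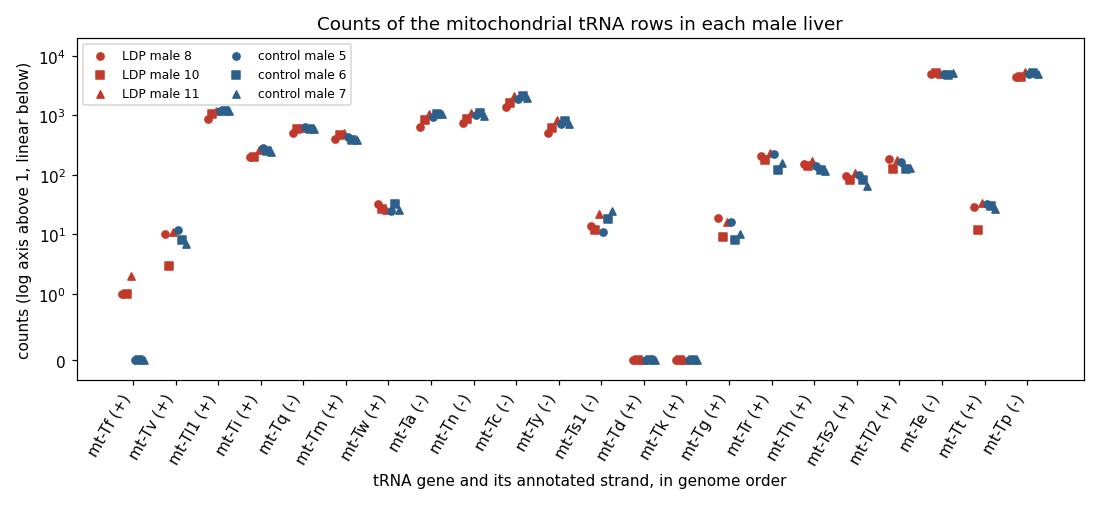
Counts of the 22 mitochondrial tRNA rows in each mouse, in genome order with the annotated strand in brackets, on an axis that is logarithmic above 1 and linear below it; each point is 1 mouse. mt-Te and mt-Tp lie highest, at 4446 to 5362 counts, and mt-Td and mt-Tk are at 0 in all 6 mice.

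The 4 neighbouring minus-strand tRNAs between mt-Nd2 and mt-Co1 shared their lowest mice with the rRNAs. mt-Tc, the tRNA for cysteine, was at 19.4, 21.4 and 30.2 CPM in LDP males 8, 10 and 11 and 25.8, 28.4 and 26.8 CPM in control males 5, 6 and 7. mt-Ta, for alanine, was at 8.97, 10.8 and 14.98 against 13.1, 14.6 and 14.6 CPM. mt-Ty, for tyrosine, was at 7.21, 8.11 and 11.8 against 9.78, 11.2 and 10.1 CPM. mt-Tn, for asparagine, was at 10.7, 11.5 and 15.8 against 13.7, 15 and 13.7 CPM. LDP males 8 and 10 were the lowest and LDP male 11 the highest mouse in each of the 4. Their log2 changes were -0.28 (SE 0.174) for mt-Ta, -0.16 (SE 0.140) for mt-Tn, -0.19 (SE 0.158) for mt-Tc and -0.19 (SE 0.175) for mt-Ty, and none passed edgeR's test (adjusted p 0.92 to 0.921). These values rested on single mice: without LDP male 11 they were -0.51, -0.35, -0.41 and -0.43, and without LDP male 8 they were -0.13, -0.05, -0.07 and -0.05, in the same order of genes and with none past the threshold.

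mt-Tl1, the leucine tRNA just after mt-Rnr2, was at 12.6, 13.6 and 16.8 CPM in the LDP and 16.4, 16.1 and 16.4 CPM in the control males. mt-Ti, for isoleucine, was at 2.82, 2.62 and 3.69 against 3.92, 3.47 and 3.39 CPM. LDP males 8 and 10 were again the lowest. In all, 12 members had LDP males 8 and 10 as their lowest mice, namely both rRNAs, mt-Nd2, mt-Atp8 and 8 tRNAs. LDP male 11 was the highest mouse of 22 members. mt-Atp8 had only 4 to 6 counts, too few to order the mice. How many of all genes show these orders was not counted, so they cannot be called particular to the members. Some other tRNAs did not follow. mt-Te was at 70.5, 68.3 and 70.5 against 67.4, 65.8 and 71.96 CPM, a log2 change of 0.03 (SE 0.0624). mt-Th, for histidine, was at 2.15, 1.85 and 2.5 against 1.91, 1.67 and 1.64 CPM, a log2 change of 0.32 (SE 0.175), and had the smallest unadjusted p of the members.

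The other tRNA rows had intervals on both sides of 0. mt-Tq and mt-Tm, for glutamine and methionine, had 497 to 638 and 385 to 513 counts and log2 changes of -0.06 (SE 0.112) and 0.22 (SE 0.124). mt-Tl2, mt-Ts2 and mt-Tr, with 66 to 234 counts, had log2 changes of 0.24 (SE 0.216), 0.22 (SE 0.226) and 0.32 (SE 0.241). mt-Tp changed by -0.05 (SE 0.0968). The rows of fewest counts among those named, mt-Tw, mt-Tt, mt-Ts1 and mt-Tg, had 8 to 34 counts and log2 changes of 0.07 (SE 0.286), -0.23 (SE 0.404), -0.15 (SE 0.433) and 0.39 (SE 0.457).

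The nuclear genes that make, process and use mitochondrial RNA differed as little between the groups. Of 20 genes for upkeep and transcription of mitochondrial DNA, 11 were higher and 9 lower in LDP males, with a median log2 change of 0.02. Among them Tfam, which packages the DNA and starts transcription, was at 49.6, 47.4 and 47.1 CPM in the LDP and 47.7, 48.2 and 45.8 CPM in the control males. Polrmt, the mitochondrial RNA polymerase, was at 19.1, 21.0 and 19.6 against 21.9, 20.8 and 22.3 CPM. The groups overlapped for both. Of 15 regulators of mitochondrial biogenesis, 8 were higher and 7 lower, with a median of 0.02, and Ppargc1a, the coactivator PGC-1alpha, was at 24.7, 23.4 and 21.5 against 21.7, 21.3 and 23.3 CPM.

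Of 32 genes for processing and decay of mitochondrial RNA, 19 were higher and 13 lower, with a median log2 change of 0.02. 2 of them had an unadjusted p under 0.05, both higher, where 5.23% of all genes had one in either direction. Angel2, of a family of RNA phosphatases and nucleases, was at 26.8, 24.6 and 24.9 CPM in the LDP and 20.5, 22.04 and 23.03 CPM in the control males, without overlap. Its log2 change was 0.22 (SE 0.0721, adjusted p = 0.92 in edgeR). Mrm3, which methylates the large mitochondrial rRNA, was at 7.18, 7.19 and 5.13 against 5.25, 5.30 and 4.91 CPM, with LDP male 11 at the level of the controls. Its log2 change was 0.33 (SE 0.145, adjusted p = 0.92 in edgeR). Lrpprc, which with Slirp stabilises mitochondrial mRNAs, was at 167.7, 172.9 and 167.4 against 171.7, 174.3 and 164.2 CPM.

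The protein side of the mitochondrial ribosome was likewise close between groups: of 76 tested mitoribosomal protein genes 27 were higher and 49 lower, with a median log2 change of -0.04. Of 33 mitochondrial translation factors 13 were higher and 20 lower (median -0.02). The nuclear-encoded subunits that join the mitochondrial ones were split as well, with 18 of 36 higher for complex I, 4 of 9 for complex III, 8 of 11 for complex IV and 10 of 18 for complex V. Medians of these lists ran from -0.0045 (complex III) to 0.02 (complex IV). Complex II, which has no mitochondrially encoded subunit, had 2 of 4 higher. Of 20 genes of the mitochondrial unfolded protein response, 7 were higher and 13 lower (median -0.04). In these 11 lists 0 genes passed edgeR's test, and 2, the Angel2 and Mrm3 just named, had an unadjusted p under 0.05. Without LDP male 11 this was 27 of 273 genes, 18 of them lower, against 13.2% of all genes, and 0 passed the adjusted test. The median of the mitoribosomal proteins became -0.08 when LDP male 11 was left out and was 0.0044 when LDP male 10 was.

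Levels of the abundant mitochondrial mRNAs stood far above those of their nuclear partners. Per kilobase, the 11 nuclear-encoded complex IV subunits had a median of 132.5 CPM, with Ndufa4 highest at 447.8, against 12697 CPM per kilobase for mt-Co1. The 36 nuclear-encoded complex I subunits had a median of 44.1 and a highest value of 230.4 (Ndufb9), against 2936 to 7309 for the abundant complex I genes of the mitochondrial genome. In complex III the highest nuclear gene was Cyc1, at 135.6, against 9322 for mt-Cytb. The mitochondrial genes mt-Co2, mt-Co3, mt-Nd3, mt-Nd4l, mt-Atp6 and mt-Atp8 fell below the medians of the nuclear lists of their complexes. All of them lie within the span of the chromosome 1 copy, whose part in their low counts was not tested.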

How the data were processed

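RNA from 6 male livers was sequenced as 1 library per mouse. The deposited values used here are raw counts per gene, 1 column per mouse, with the chromosome and gene length given by the authors. Extraction used the RNeasy Mini Kit and library preparation TruSeq v2, per the labels' protocols. The tools named in the submitters' processing notes, without roles, are featureCounts 1.4.3-p1, DESeq, HTSeq 0.5.3p9 and STAR 2.3.0e, with the mm10 genome; strandedness and the treatment of reads that match several genes are not given in the sources used here.

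The filter on low counts was filterByExpr with a minimum count of 10 and a total of at least 15, and TMM gave the scaling factors. LDP and control males, 3 each, were compared in edgeR 4.0.16 (R 4.3.3) by robust quasi-likelihood F tests, with Benjamini-Hochberg adjustment over 15438 genes and a threshold of 0.05. CPM use TMM-scaled library sizes. SEs and intervals of log2 changes were derived from F and are approximate. On simulated counts for this comparison (15444 genes), the test recovered 37.3% of 67 genes changed 1.5-fold and 88.1% of 67 changed 2-fold. It recovered 97% of 66 changed 4-fold, with 5 false calls among 153. The simulation used the same dispersion for every gene, not estimated from these mice, so these shares do not give the power here. An exact permutation test of 3 mice against 3 cannot give a two-sided p below 0.1 and was not used.

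Each mRNA and rRNA was named, with tRNA rows of at least 10 mean counts and, of each companion list, up to 2 genes per direction of smallest unadjusted p under 0.05. A few partner genes of known function (Tfam, Polrmt, Ppargc1a, Lrpprc) and the nuclear copies were named for their role. The members and lists were chosen with earlier results of these data known. Mitochondrial genes were compared with the nuclear transcripts of GENCODE M21 (GRCm38) by BLAST, keeping matches to pseudogenes of at least 50 bases and 90% identity. Alternatives were DESeq2 1.42.0, other scalings and filters, other lengths and leaving out each mouse.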

Additional observations from a re-analysis of the deposited data

How the results depend on the processing

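Over 15 alternatives, the number of mitochondrial genes passing the test was 0 except without LDP male 11, where it was 2 (mt-Rnr1 and mt-Rnr2), so the range when leaving out 1 mouse was 0 to 2. At an unadjusted p under 0.05 the range was 0 to 9, and that of the 273 companion genes 0 to 27, both highest without LDP male 11. Of the 32 named members, 20 kept the sign of their log2 change in every setting and 12 had the other sign in at least 1, none of them past the threshold. All genes passing numbered 1 in the fit of all 6 mice, 42 with DESeq2, 2 with no filter on low counts, and 0 to 66 when leaving out 1 mouse. Scaled to the mitochondrial total, 12 of the 33 tested members were higher, against 16, and the rRNA changes were -0.35 (mt-Rnr1) and -0.37 (mt-Rnr2); the median of all genes moved to -0.03. Without LDP male 10, 21 of 33 were higher. No paired analysis was possible because LDP and control males share no mouse number. Counts limit mt-Co2, mt-Atp6, mt-Atp8, mt-Nd4l and the smaller tRNA rows, whose intervals span more than the changes of the abundant mRNAs.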
